A study of Mus musculus with 6 samples.

Results

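The genes described here encode 8 adrenergic receptors, the cell-surface proteins through which noradrenaline and adrenaline act on the vessel wall. They were chosen by symbol from the 55341 gene names of a read-count table of mouse aorta: 3 alpha-1 receptors (Adra1a, Adra1b and Adra1d), 3 alpha-2 receptors (Adra2a, Adra2b and Adra2c) and 2 beta receptors (Adrb1 and Adrb3). RNA was sequenced from aortas of 3 miRNA-26b-/- mice (libraries M2626, M2627 and M2628) and 3 miRNA-26b+/+ mice (M2629, M2630 and M2631), to ask how loss of this microRNA changes the aortic transcriptome. The labels give the strain of both groups as C57BL/6NCrl, and the study describes the sequenced mice as 8 weeks old and fed chow. The knockout allele came from 129/Sv embryonic stem cells, was floxed and then deleted with a tamoxifen-induced CreERT2 recombinase, which was bred out afterwards. The methods describe the aortic arch and thoracic aorta after perfusion, whereas the labels name aortic endothelial cells.

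Adrenergic receptors couple to G proteins of different classes. Alpha-1 receptors act through Gq and phospholipase C to release calcium and contract arterial smooth muscle, alpha-2 receptors act through Gi and lower cyclic AMP, many of them on sympathetic nerve endings where they restrain noradrenaline release, and beta receptors act through Gs and raise cyclic AMP. In mouse aorta the alpha-1D receptor carries much of the contraction to noradrenaline, while the beta-3 receptor is best known from white and brown fat cells, which also surround the vessel.

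The sequences that bear on the genotype are those of the deleted microRNA and of its closest relative, which the knockout mice still carry. Mature miR-26b-5p is read from the forward strand of chr1:74394324-74394344 (GRCm38.p6), and miR-26a-5p from chr9:119031811-119031832 and chr10:126995543-126995564. Both are printed from RefSeq, 5′ to 3′, with the seed (bases 2 to 8), which pairs with target RNA, in capitals.
mmu-miR-26b-5p: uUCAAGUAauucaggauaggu
mmu-miR-26a-5p: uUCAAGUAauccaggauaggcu
Their seeds are identical, UCAAGUA. The matching letters in a target's RNA-sense strand are TACTTGAA for the 8-base site, TACTTGA for the 7-base site without the final A and ACTTGAA for the 7-base site that needs it, and a shorter site was not counted again inside a longer site. None of the 8 receptor genes held any of these in the 3′ UTR of any of their annotated coding transcripts (GENCODE M21). Over all genes with a 3′ UTR, 18.3% (3845 of 20998) held at least 1 such site in their longest 3′ UTR, and so did 12.1% (1882 of 15550) of those with a 3′ UTR as long as the receptors'. The longest annotated 3′ UTRs of the receptors ran from 95 bp for Adra1d to 2295 bp for Adra2b, against a median of 962 bp over all genes. The search says only that these letters are not in these windows.

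The libraries held 25706728 to 33345037 counts assigned to genes. A count of 3 corresponded to 0.0900 to 0.117 CPM (a gene's counts per 1000000 counts of the library), which covers counting error only. For the gene levels given in CPM, the library's counts were also scaled by its TMM normalization factor, which lay between 0.982 and 1.015. The deleted gene could not serve as a check of the labels, since its row (Mir26b) held 20 counts in M2630 and 0 in the other 5 libraries. Smooth muscle genes dominated the RNA: Acta2, Myh11, Tagln, Cnn1, Smtn and Lmod1 summed to 31085 to 39518 CPM in the knockout and 34053 to 41966 in the wild type libraries. The 6 endothelial genes (Pecam1, Cdh5, Tek, Kdr, Vwf and Cldn5) summed to 394 to 1594 and 1111 to 1525 CPM, below the smooth muscle sum of every library. RNA of tissue around the vessel differed between libraries. Summed marker levels reached from 499 to 1594 and 411 to 1148 CPM for adipocytes, 219 to 484 and 153 to 409 for brown adipocytes, 19.2 to 337 and 26.6 to 304 for cardiac muscle, 8.39 to 85.1 and 2.18 to 11.2 for fast skeletal muscle, 22.5 to 415 and 30.2 to 71.2 for sympathetic neurons, 97.9 to 183 and 29.7 to 73.8 for Schwann cells, 1842 to 3303 and 2444 to 2546 for adventitial fibroblasts and 286 to 817 and 483 to 561 for macrophages, knockout first. M2627 was the highest library for both fat lists, both striated muscle lists and the sympathetic list. M2630 was next in each of these except fast skeletal muscle, where M2626 was next. In endothelial genes M2626 and M2627 were the lowest, at 394 and 437 CPM. Of the 10 lists, the Schwann cell list alone had summed ranges that did not overlap between the genotypes. In such bulk samples, fewer cells of a type and less RNA per cell cannot be told apart.

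Receptor RNA in the aorta was mostly that of Adra1d. Levels were compared between genes as CPM per kilobase of exon (RPKM), over all 6 libraries of both genotypes. Adra1d stood at 39.9 ± 7.59 RPKM (SD, n = 6) and was the highest receptor gene in 6 of 6 libraries. Adrb3 followed at 7.54 ± 5.50, as the second in 5 libraries and the third in M2628. The other 6 genes lay far lower: Adra1b at 1.84 ± 0.357, Adra2a at 1.78 ± 1.11, Adra1a at 1.04 ± 0.437, Adra2c at 0.816 ± 0.540, Adrb1 at 0.529 ± 0.317 and Adra2b at 0.180 ± 0.403 RPKM.

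The 7 pairs of neighbours in this order were compared within libraries by an exact two-sided sign-flip permutation test of the log2 difference, with 0.05 RPKM added. The order, and with it the pairs and their direction, came from the same 6 libraries. The p-values therefore describe the spread over these libraries and are no independent test of the order. Adra1d exceeded Adrb3 in 6 of 6 libraries, by 2.70 ± 0.92 (SD, n = 6) on the log2 scale, and Adrb3 exceeded Adra1b in 6 of 6, by 1.70 ± 1.03. For both pairs the exact permutation p was 0.03125, the smallest that 6 libraries can give, and the value adjusted over the 7 pairs was 0.109, so that no adjacent pair could be separated at an adjusted 0.05. In the 5 pairs further down the higher gene led in 3 to 5 of 6 libraries, with exact permutation p from 0.0625 to 0.562. The order of the middle genes also rested on the length used. Adra1a has 8728 bp of exons in all its transcripts together but 4282 bp in its longest coding transcript, and with the latter length it stood at 2.11 RPKM and took the third place.

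**Figure D1:**
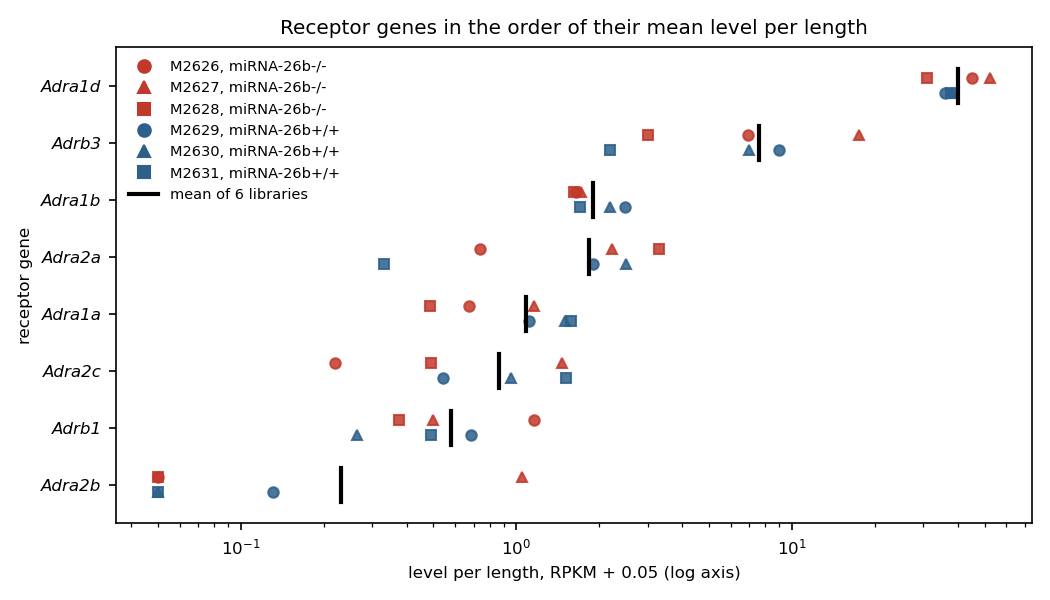
Level of each receptor gene per length in the 6 libraries (RPKM + 0.05, log axis); red symbols are miRNA-26b-/-, blue symbols miRNA-26b+/+ and black bars the mean of 6 libraries. Adra1d lies above every other receptor in each library, Adrb3 is next at a mean of 7.54 RPKM with a wide scatter, and Adra2b was at 0 in 4 libraries.

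As a share of the summed RPKM of the 8 genes, Adra1d made up 80.3%, 67.5% and 77.5% in the knockout libraries M2626, M2627 and M2628 and 69.7%, 72.9% and 83.4% in the wild type libraries M2629, M2630 and M2631. The group means of 75.1% ± 6.73 and 75.3% ± 7.12 (SD, n = 3 each; exact permutation p = 1) differed by less than the spread within either group. By class, alpha-1 receptors held 80.8% ± 6.65 of the receptor RNA, beta receptors 13.9% ± 6.42 and alpha-2 receptors 5.28% ± 2.59 (SD, n = 6). The beta share was almost that of Adrb3, which ranged from 4.73% in M2631 to 22.5% in M2627. None of the 3 class shares separated the genotypes, with exact permutation p from 0.6 to 0.9. Of the 8 gene shares, that of Adra1a did not overlap between the groups, at 1.12%, 1.42% and 1.09% in the knockout and 2.08%, 2.78% and 3.40% in the wild type libraries (exact permutation p = 0.1, the smallest that 3 against 3 can give). That is 1 of 8 shares, and a background over all genes was not formed for them. Over all genes tested, CPM ranges did not overlap for 11.5%, and ratios to Adra1d did not for 8.68%. The shares were formed after the values had been seen.

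**Figure D2:**
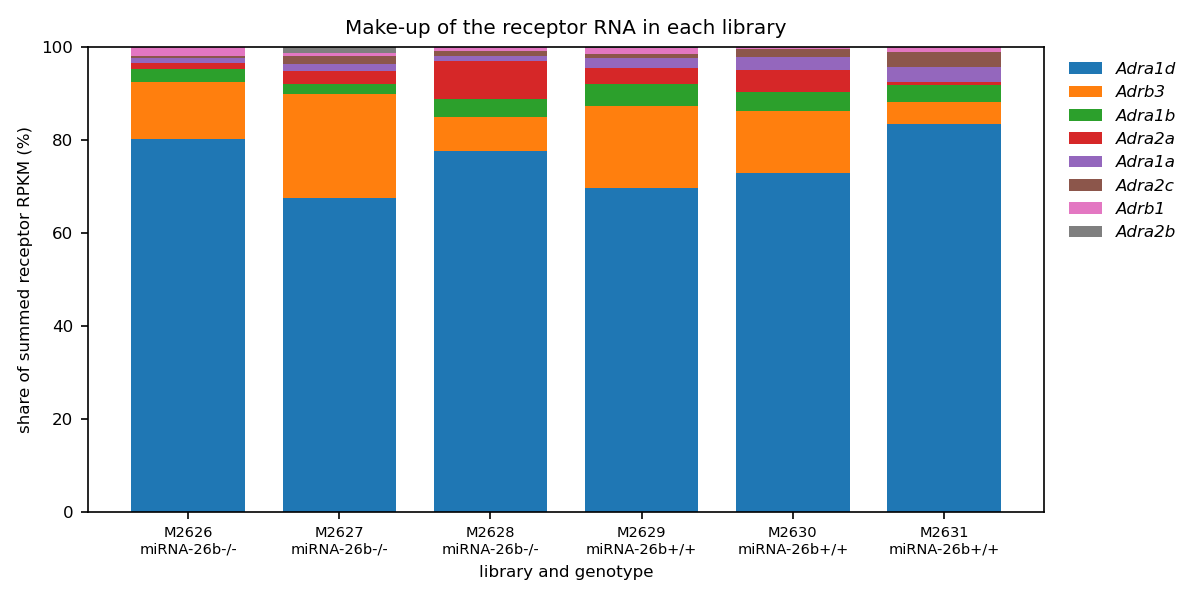
Share of each receptor gene in the summed RPKM of the 8 genes, 1 bar per library. Adra1d takes 67.5% to 83.4% of every bar, and the part that varies most is that of Adrb3, from 4.73% to 22.5%.

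Between the genotypes, no receptor gene passed the test. Of the 8 genes, 7 had over 1 CPM in at least 2 libraries and were tested, and 0 were called at an adjusted p under 0.05 by edgeR's quasi-likelihood test, where the background over all genes tested was 0.00624% (1 of 16017). DESeq2 and limma voom also called 0 of the 7, and over the same 16017 genes they called 57 and 3. At an unadjusted p under 0.05 the count was 0 of 7 by each of these tools, against a background of 6.47% with edgeR, 5.28% with DESeq2 and 5.29% with limma voom. The CPM ranges of the groups did not overlap for 0 of 7, where the background was 11.5%. Of the 7, 4 lay higher and 3 lower in the knockout, with a median log2 difference of 0.21, against 0.013 over all genes tested.

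**Figure D3:**
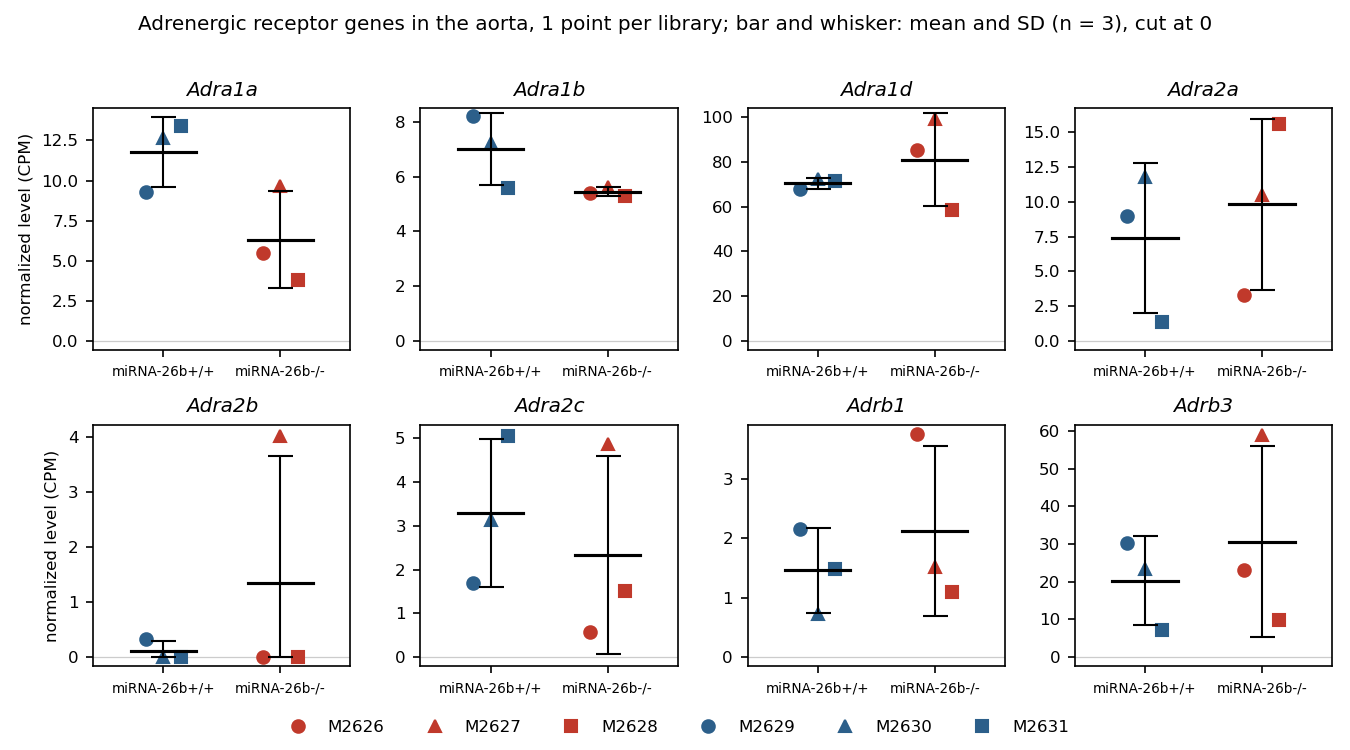
Normalized level (CPM) of each receptor gene, 1 symbol per library, with the mean (bar) and SD (whisker, cut at 0) of 3 libraries; wild type in blue, knockout in red, each panel with its own scale. The groups overlap in all 8 panels, and the red triangle (M2627) is the highest knockout symbol in 6 of them.

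Adra1d lies on the reverse strand of chr2:131545850-131562283 (GRCm38, ENSMUSG00000027335) and has 2 exons, both of which hold coding sequence. It was at 85.2, 99.5 and 58.7 CPM in M2626, M2627 and M2628 and at 67.8, 72.2 and 71.4 CPM in M2629, M2630 and M2631. The 3 wild type libraries lay close together, between the lowest and the middle knockout library. The log2 fold change (miRNA-26b-/- minus miRNA-26b+/+) was 0.21 with an SE of 0.200 (adjusted p = 0.917; exact permutation p = 0.4), and its 95% interval ran from -0.22 to 0.64. Without M2628 it was 0.40 (unadjusted p = 0.0378, adjusted p = 0.424), in a fit that put 10.8% of all genes under an unadjusted p of 0.05 and called 82 of them. Relative to the smooth muscle genes, Adra1d stood at 1.70 to 2.83 CPM per 1000 CPM, with group means of 2.29 ± 0.485 and 1.91 ± 0.185 (SD, n = 3 each; exact permutation p = 0.3). An antisense gene, Gm14285, covers 147 bp (7.74%) of the exons of Adra1d, and counting without strand gave it 192 to 546 reads, which cannot be told apart from those of Adra1d in the shared stretch.

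Adra1a, the alpha-1A receptor, which raises tone mainly in smaller arteries, spans chr14:66635251-66771168 on the forward strand (ENSMUSG00000045875). It was at 5.46, 9.65 and 3.79 CPM in the knockout and at 9.29, 12.7 and 13.4 CPM in the wild type libraries. M2627 lay just above the lowest wild type library, and the other 2 knockout libraries lay below all 3. This was the difference of largest fitted size among the 7 genes, with a log2 fold change of -0.86 (SE 0.436), a 95% interval of -1.79 to 0.077, an unadjusted p of 0.0693 and an adjusted p of 0.777 (exact permutation p = 0.2). Leaving out M2627 gave -1.36 (unadjusted p = 0.0209, adjusted p = 0.857), while leaving out each other library kept it between -1.01 and -0.59.

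Set against Adra1d in the same library, Adra1a stood at 6.41, 9.69 and 6.45 CPM per 100 CPM in the knockout and at 13.7, 17.5 and 18.8 in the wild type libraries. The groups did not overlap, at 7.52 ± 1.88 and 16.7 ± 2.64 (SD, n = 3 each), with an exact permutation p of 0.1, again the smallest possible. This ratio was formed after the values had been seen. The ratio to Adra1d did not overlap between the groups for 8.68% of the other genes tested (1390 of 16016). The same ratio for Adra1b did overlap, at 7.01 ± 1.80 and 9.99 ± 2.14 (exact permutation p = 0.2).

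Adra1b, the alpha-1B receptor (reverse strand of chr11:43774606-43901210, ENSMUSG00000050541), had the smallest range over the libraries, 1.55-fold. It was at 5.39, 5.63 and 5.31 CPM in the knockout and at 8.21, 7.24 and 5.58 CPM in the wild type libraries. Its 3 knockout values lay within a narrow band, and M2631 lay among them. The log2 fold change was -0.36 (SE 0.467, adjusted p = 0.941; exact permutation p = 0.2), and the 95% interval ran from -1.36 to 0.63. Its variance within genotypes was 3.91 times that of counting error, where the median over all genes tested was 37.8; this measure grows with the level of a gene. By the coefficient of variation over the 6 libraries, Adra1b (19.4%) and Adra1d (19.0%) were close.

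Adra2a encodes the alpha-2A receptor, the main receptor by which sympathetic endings limit their own noradrenaline release. It is a gene of a single exon on the forward strand of chr19:54044151-54048982 (ENSMUSG00000033717). Its levels were 3.32, 10.5 and 15.6 CPM in the knockout and 8.96, 11.8 and 1.35 CPM in the wild type libraries. M2628 was the highest and M2631 the lowest, yet each group covered most of the range. Its log2 fold change of 0.46 (SE 0.595, adjusted p = 0.941; exact permutation p = 0.6) became -0.054 without M2631. Adra2c, the alpha-2C receptor (forward strand of chr5:35278319-35281763, ENSMUSG00000045318), was at 0.585, 4.88 and 1.52 CPM in the knockout and 1.69, 3.13 and 5.06 CPM in the wild type libraries. The log2 fold change was -0.38 (SE 0.775, adjusted p = 0.969; exact permutation p = 0.5), and it turned to 0.017 without M2626 and to 0.078 without M2631.

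Adra2b, the alpha-2B receptor (forward strand of chr2:127363208-127367221, ENSMUSG00000058620), was found in 2 libraries only. M2627 held 135 counts (4.02 CPM) and M2629 held 10 (0.326 CPM), while the other 4 libraries held 0. It therefore missed the filter on low levels, and in a fit without the filter its log2 fold change of 3.72 had an SE of 2.18 (adjusted p = 0.891). M2627 was also the library with the most sympathetic neuron RNA, 415 CPM over 10 genes. Of that list 9 genes were tested and 5 were higher in the knockout at an unadjusted p under 0.05, against 544 of 16017 over all genes tested. The sympathetic list was not alone in this. At the same cut 5 of 6 Schwann cell genes and 4 of 5 tested fast skeletal muscle genes were higher, and 1 endothelial gene was lower. Th and Dbh were at 0 in M2626, M2628, M2629 and M2631. M2630, with 3.57 CPM of Th and 15.0 of Dbh, held no Adra2b, and M2629, without Th or Dbh, held some. The part of nerve RNA in the Adra2b value of M2627 was not tested.

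Adrb1, the beta-1 receptor, is the main receptor through which noradrenaline drives heart muscle (forward strand of chr19:56722199-56733113, ENSMUSG00000035283). It was at 3.75, 1.52 and 1.10 CPM in the knockout and 2.15, 0.728 and 1.49 CPM in the wild type libraries. These rested on 20 to 96 counts a library. The highest Adrb1 value came from M2626, where cardiac muscle genes summed to 19.9 CPM, and not from M2627 or M2630, where they reached 337 and 304 CPM, and the part of heart RNA in the Adrb1 level was not tested. The log2 fold change of 0.46 (SE 0.856, adjusted p = 0.965; exact permutation p = 0.6) had a 95% interval of -1.35 to 2.28 and became -0.16 without M2626.

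Adrb3 (reverse strand of chr8:27225776-27250616, ENSMUSG00000031489) encodes the beta-3 receptor, through which noradrenaline starts fat breakdown and heat production in adipocytes. Its levels were 23.1, 58.9 and 9.95 CPM in the knockout and 30.2, 23.4 and 7.20 CPM in the wild type libraries. M2627 stood apart at the top, M2631 and M2628 were lowest, and both low libraries came from different genotypes. The log2 fold change was 0.65 (SE 0.519, adjusted p = 0.887; exact permutation p = 0.7), with a 95% interval of -0.46 to 1.75. It rested on M2627: without that library it was -0.31 (adjusted p = 0.969), and without both M2627 and M2630 it was -0.20. Without M2628 it was 1.06, with an unadjusted p of 0.0211 and an adjusted p of 0.351. The antisense gene Gm45470 covers 839 bp (24.9%) of the exons of Adrb3. It held 0 to 56 reads, with 0 in M2628 and M2630, where Adrb3 held 281 and 644.

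Adrb3 ranged 8.17-fold over the 6 libraries, less than Adra2a (11.5-fold) or Adra2c (8.64-fold) but at a far higher level, and its variance within genotypes was 411 times that of counting error. The 6 adipocyte genes (Adipoq, Plin1, Cidec, Lep, Retn and Fabp4) summed to 734, 1594 and 499 CPM in the knockout and to 822, 1148 and 411 CPM in the wild type libraries. The highest and the 2 lowest libraries were the same as for Adrb3, while the next highest was M2630 for these genes and M2629 for Adrb3. No marker of the 6 was at 0 in any library, all 6 were tested, and 0 passed an unadjusted p under 0.05 between the genotypes. Per 1000 CPM of these genes, Adrb3 stood at 31.5, 36.9 and 19.96 CPM in the knockout and 36.7, 20.4 and 17.5 in the wild type libraries, a 2.11-fold range. Per 1000 CPM of the 6 brown adipocyte genes it ranged 2.93-fold, from 41.5 to 122 CPM, and in that list M2631 and M2626 were the lowest libraries. For the general adipocyte list the group means of the ratio were 29.5 ± 8.67 and 24.9 ± 10.3 (SD, n = 3 each; exact permutation p = 0.7), and for the brown list 89.5 ± 42.3 and 70.1 ± 31.6 (exact permutation p = 0.8). Both ratios were also chosen after the values had been seen. The part of fat RNA in the Adrb3 level was not tested beyond these ratios.

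**Figure D4:**
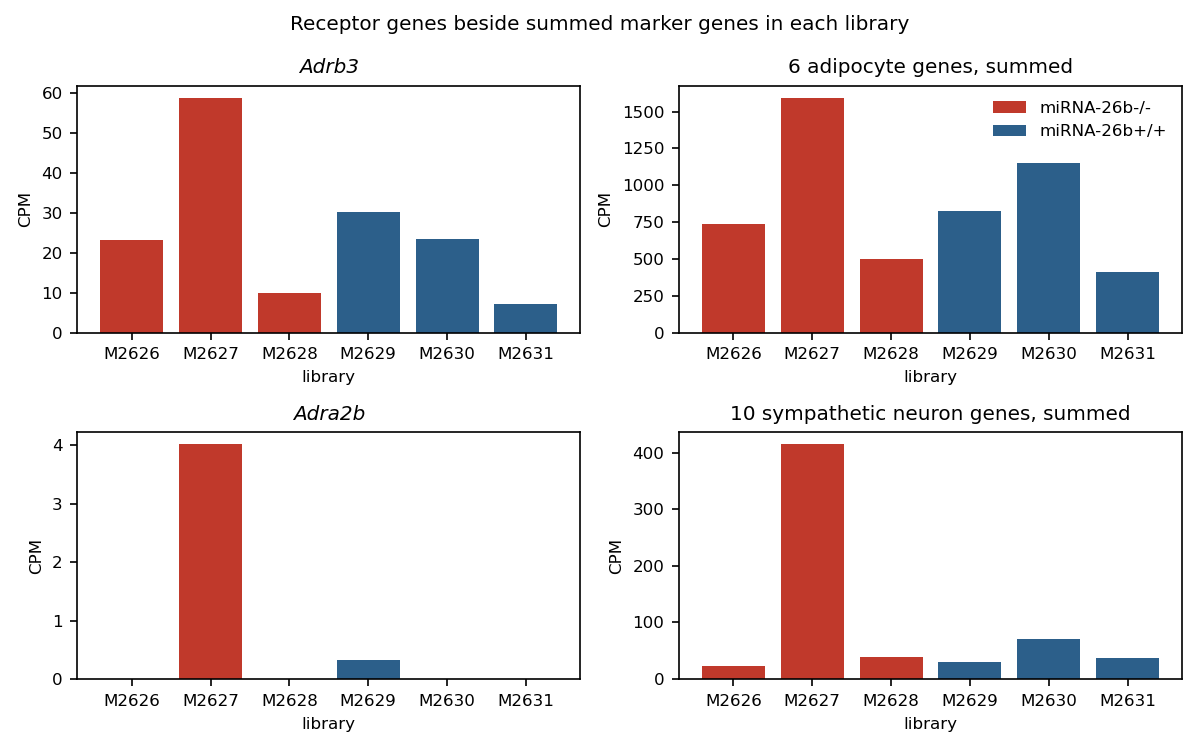
Adrb3 and Adra2b (left, CPM) beside the summed CPM of 6 adipocyte genes and 10 sympathetic neuron genes (right) in each library, red for miRNA-26b-/- and blue for miRNA-26b+/+. M2627 is the tallest bar in each panel, and the 2 lowest Adrb3 libraries, M2628 and M2631, are also the lowest in adipocyte genes.

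**Figure D5:**
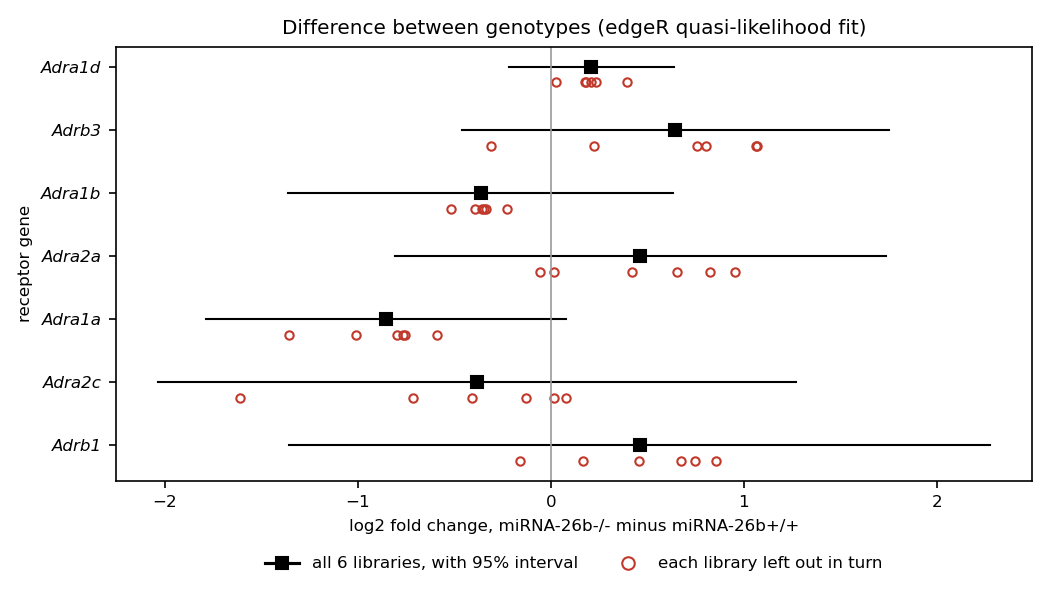
Log2 fold change of the 7 tested receptor genes (black squares) with its 95% interval, and the value after leaving out each library in turn (red circles). Each interval crosses 0, and the circles lie on both sides of 0 for Adrb3, Adra2a, Adra2c and Adrb1.

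The rest of the adrenergic pathway was followed in 71 genes in 8 groups, of which 67 were tested. None was called at an adjusted p under 0.05 by edgeR, DESeq2 or limma voom. At an unadjusted p under 0.05, 4 were higher and 2 lower in the knockout with edgeR, which is 8.96% of those tested against the background of 6.47%. DESeq2 and limma voom each put 4 of the 67 under that value, where their backgrounds were 5.28% and 5.29%. The genes were not the same ones in each tool. They were Plcb4, Adcy5, Rock2 and Slc6a2 with DESeq2, and Plcb4, Adcy5, Rock2 and Rgs5 with limma voom. The groups' CPM ranges did not overlap for 8 of the 67, a share near the background of 11.5%. The median log2 difference of the list was -0.068, against 0.013 over all genes tested.

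On the alpha-1 route, 1 of 9 tested phospholipase C and calcium release genes passed the unadjusted test. Plcb4, a phospholipase C that Gq activates, was at 307, 377 and 286 CPM in the knockout and 400, 409 and 454 CPM in the wild type libraries, and the groups did not overlap. Its log2 fold change was -0.38 (SE 0.142, unadjusted p = 0.0180, adjusted p = 0.736), and the unadjusted p rose above 0.05 without M2628 (0.0550) or M2631 (0.0626). The calcium release channel Itpr1, the most abundant of this group, differed by -0.15 (SE 0.137). Of the 9 G protein alpha subunits, 0 passed, and the most abundant of them, Gnas, which encodes the Gs subunit, was at 1083 to 1269 CPM with a log2 fold change of -0.060.

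On the cyclic AMP route, 1 of 15 adenylyl cyclase and protein kinase A genes passed the unadjusted test. This was Adcy5, an adenylyl cyclase and the most abundant of its group, at 1200, 1026 and 1035 CPM in the knockout and 1156, 1456 and 1482 CPM in the wild type libraries. M2626 lay above the lowest wild type library, and the log2 fold change was -0.33 (SE 0.134, unadjusted p = 0.0275, adjusted p = 0.736). Leaving out M2627, M2628, M2630 or M2631 moved its unadjusted p to between 0.0565 and 0.115. No phosphodiesterase gene passed among 5 tested, and Pde3a, the most abundant, differed by -0.030. Among 11 tested genes of receptor desensitisation 0 passed with edgeR, with the G protein brake Rgs5 at -0.27 (SE 0.142).

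The supply of noradrenaline gave the other 4 genes of the edgeR fit, each of which was highest in M2627. Th, the rate-limiting enzyme of catecholamine synthesis, was at 37.0 CPM in M2627, 3.57 CPM in M2630 and 0 in the other 4 libraries. Ddc, the next enzyme, stood at 29.6 CPM in M2627 and between 0 and 4.88 CPM elsewhere, and Slc18a2, the vesicle transporter, at 31.5 against 0 to 4.71 CPM. Slc6a2, which returns noradrenaline to the nerve ending, was at 113 CPM in M2627 and 5.90 to 14.6 CPM in the others, with a log2 fold change of 2.74 (SE 0.804, unadjusted p = 0.00395, adjusted p = 0.731). The difference rested on M2627: without this library the value for Slc6a2 was 0.63 (unadjusted p = 0.229), for Slc18a2 0.90 and for Ddc -0.58, and Th was no longer tested. Dbh, the most abundant gene of synthesis and storage, was at 86.1 CPM in M2627, 15.0 in M2630 and 0 elsewhere (unadjusted p = 0.0522).

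The genes whose levels followed each receptor most closely over the 6 libraries were sought among about 11675 other genes with a mean of at least 5 CPM, as a description with no test. With so few libraries and so many genes, high values of r are found for any pattern. Adra1a was followed by Reep4, Slc25a12 and Limk2 (Pearson r of log2(CPM + 0.5) from 0.978 to 0.987), Adra1b by Spata5l1, Aen and Xiap (0.976 to 0.992) and Adra1d by Babam1, Ndufb9 and S100pbp (0.988 to 0.992). Adra2a was followed by Rasd1, Smagp and Slc7a7 (0.982 to 0.992), Adra2c by Kctd11, Cdan1 and Tspan31 (0.974 or more), Adrb1 by Kdm1b, Phf11d and Tfb1m (0.982 to 0.992) and Adrb3 by Fam213a, Immp1l and Aacs (0.987 to 0.995). Reep4, the closest to Adra1a, was at 5.07, 8.16 and 3.47 CPM in the knockout and 10.1, 12.99 and 14.4 CPM in the wild type libraries. Fam213a, the closest to Adrb3, was highest in M2627 at 52.1 CPM and lowest in M2631 at 13.2 CPM.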

How the data were processed

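Total RNA was isolated from 6 aortas, and libraries made from it with a TruSeq RNA kit, 1 library per mouse, were sequenced. Per the file headers and the study's methods, the authors aligned reads to GRCm38/mm10 with STAR and deposited raw counts per gene name from featureCounts 1.6.4 (exons, all overlapping genes counted, no strand, GENCODE M21; the methods name M23). A table of the authors' normalized values and their own comparison was not used.

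Counts were normalized by TMM and tested with edgeR 4.0.16 (quasi-likelihood, R 4.3.3) over genes with at least 2 counts in all and over 1 CPM in at least 2 libraries, with Benjamini-Hochberg adjustment over 16017 genes and a prior count of 0.125. RPKM used the exon length deposited in the count table. Single values were compared by exact two-sided permutation tests, which cannot go below 0.1 with 3 against 3. The scripts were tested on simulated data. Alternatives were DESeq2 1.42.0, limma voom 3.58.1, other normalizations, filters and prior counts, and leaving out libraries. Replicates are separate mice. Genes named were the 8 receptors, pathway genes at an unadjusted p under 0.05, the most abundant gene of each pathway group, markers, and the 3 genes most alike to each tested receptor. The most abundant genes of 2 pathway groups are not reported here. The genes and lists were chosen with earlier results of these data known.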

Additional observations from a re-analysis of the deposited data

How the results depend on the processing

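Over 14 alternatives, the 7 tested receptors kept their direction in 92 of 98 values, and none was called at an adjusted p under 0.05 (lowest 0.351). Adra1a, Adra1b and Adra1d kept theirs in every fit. The direction turned for Adra2a without M2631 (-0.054), Adra2c without M2626 (0.017) or M2631 (0.078), Adrb1 without M2626 (-0.16), and Adrb3 without M2627 (-0.31) or without both M2627 and M2630 (-0.20). Leaving out each library gave log2 fold changes of -0.054 to 0.95 for Adra2a, -1.61 to 0.078 for Adra2c, -0.16 to 0.86 for Adrb1 and -0.31 to 1.07 for Adrb3. Receptors at an unadjusted p under 0.05 numbered 0 to 2 (Adra1a without M2627, Adra1d and Adrb3 without M2628) and pathway genes 2 (without M2631, where 4.36% of all genes passed) to 9 (without M2628, 10.8%), with 3 without M2627 (5.76%) and 2 without both M2627 and M2630 (3.998%). These fits had fewer samples; the cause was not tested otherwise. The number of genes called over the whole table ranged from 0 to 82, with 57 by DESeq2, 3 by limma voom, 0 without M2626, M2630 or M2631, and 82 without M2628. With the longest coding transcript as the length, an alternative added after seeing the data, 5 of 8 receptors kept their place in the order. Low counts limit Adrb1, Adra2b and Adra2c most. No paired analysis was made, because the libraries are separate mice and the labels name no pairs of them.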
